A study of Mus musculus with 30 samples.

Results

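The messenger RNAs of 8 neuropeptide precursors, Sst, Npy, Vip, Cck, Cort, Penk, Grp and Tac1, were followed in the mouse primary visual cortex (V1) at postnatal days 14, 28 and 60 (P14, P28 and P60). Their members are the probe sets of 3 Affymetrix chip types, called chips A, B and C here, to which the array annotation gives one of these symbols alone. This gave 8 of 15964 named genes and 12 of 36899 probe sets, with 4 for Penk, 2 for Vip and 1 for each of the other 6 genes, and none of them was on chip B. P14 was represented by 3 litters, P28 by 3 and P60 by 4, all of mice under standard rearing, with no genetic change or treatment named in the labels. The sources used here do not give strain, sex or how many animals a litter sample pooled. The authors deposited linear MAS5 signals, 1 per probe set and array, and every array has a 2% trimmed mean of 500. The labels separate the litters by number only, so the p-values measure the spread between litter samples.

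A neuropeptide is made as part of a longer precursor protein, which is cut by convertases in the secretory pathway, packed into dense-core vesicles and released to act on G-protein-coupled receptors. In the cerebral cortex most of these precursors mark subclasses of GABAergic interneurons. Sst, Npy, Vip and Cort are the classical interneuron genes, Cck is made by interneurons and also by pyramidal cells, and Penk, Tac1 and Grp are found in smaller sets of cortical cells. Penk and Tac1 are also abundant in the striatum, which lies beneath the cortex. Transcription of several of these genes in cultured cells is known to depend on the cyclic AMP response element (CRE), for which the Sst promoter is the textbook example.

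Promoter windows are shown for Sst and Cck, and for Npy, whose signal went with that of Penk. Sst and Cck went together most closely of all pairs of the 8 genes over the 10 litters (Pearson's r = 0.98). Without P14 litter 1, where both were lowest, their r was 0.84, under that of Npy and Penk. The latter pair had 0.89 with that litter and 0.90 without it. Each window runs from 250 bases before to 50 bases after a transcription start of the gene in RefSeq on build GRCm38.p6, 5′ to 3′ on the gene's strand. For Sst that start is not the outer end of the gene's RefSeq interval, which reaches base 23891342, so its window lies inside the interval. Sst lies at chr16:23890795-23891094 on the minus strand, Cck at chr9:121495645-121495944 on the minus strand and Npy at chr6:49822460-49822759 on the plus strand. Capitals mark the full palindrome TGACGTCA in Sst and the half-site TGACG, read on either strand, in Cck.
Sst: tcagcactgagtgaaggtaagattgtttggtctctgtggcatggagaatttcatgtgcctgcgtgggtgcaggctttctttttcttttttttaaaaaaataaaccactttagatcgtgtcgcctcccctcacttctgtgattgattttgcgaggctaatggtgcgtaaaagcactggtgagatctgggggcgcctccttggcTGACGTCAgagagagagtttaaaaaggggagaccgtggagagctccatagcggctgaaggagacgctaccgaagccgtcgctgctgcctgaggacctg
Cck: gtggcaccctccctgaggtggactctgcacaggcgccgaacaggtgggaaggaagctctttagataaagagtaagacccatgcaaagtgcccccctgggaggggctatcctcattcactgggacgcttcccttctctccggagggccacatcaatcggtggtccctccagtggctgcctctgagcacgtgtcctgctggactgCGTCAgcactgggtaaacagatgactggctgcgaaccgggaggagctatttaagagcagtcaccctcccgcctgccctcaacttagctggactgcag
Npy: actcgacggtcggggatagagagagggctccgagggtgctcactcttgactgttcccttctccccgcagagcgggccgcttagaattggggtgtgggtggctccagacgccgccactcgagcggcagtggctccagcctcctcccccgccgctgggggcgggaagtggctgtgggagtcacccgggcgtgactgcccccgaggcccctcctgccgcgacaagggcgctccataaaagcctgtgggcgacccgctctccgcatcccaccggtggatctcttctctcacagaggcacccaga
Of the 6 members with a window read here, Sst alone held the full palindrome, which starts 48 bases before the start used for its window. The same letters were in 588 of 32851 mouse promoter windows of this length (1.79%). The half-site, which the palindrome contains, was in 5 of the 6 windows (Sst, Vip, Cck, Cort and Tac1), against 20.8% of all windows, and was not among the letters of the Npy window. A match of letters describes the window only. Penk and Grp are named without a window.

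Of the 12 probe sets, 11 were above the median signal of their chip type on at least 3 arrays and were tested. Penk 161164_r_at was not, with signals of 2 to 36 on the 10 chip A arrays, under the level of 98.4 that contains 95% of the signals of the 15 Bacillus control probe sets on that chip. 1 litter stood apart on all of its arrays. In P14 litter 1, the 3′ over 5′ signal ratio of the Gapdh control probe sets, a measure of how complete the RNA is, was 9.57 to 12.2, against 0.741 to 1.32 on the other 27 arrays, and that of Actb was 12.2 to 12.8, against 1.04 to 1.5. Comparisons of the precursors with P14 are therefore given with this litter and without it, while values of single related genes are with all litters unless stated.

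**Figure D1:**
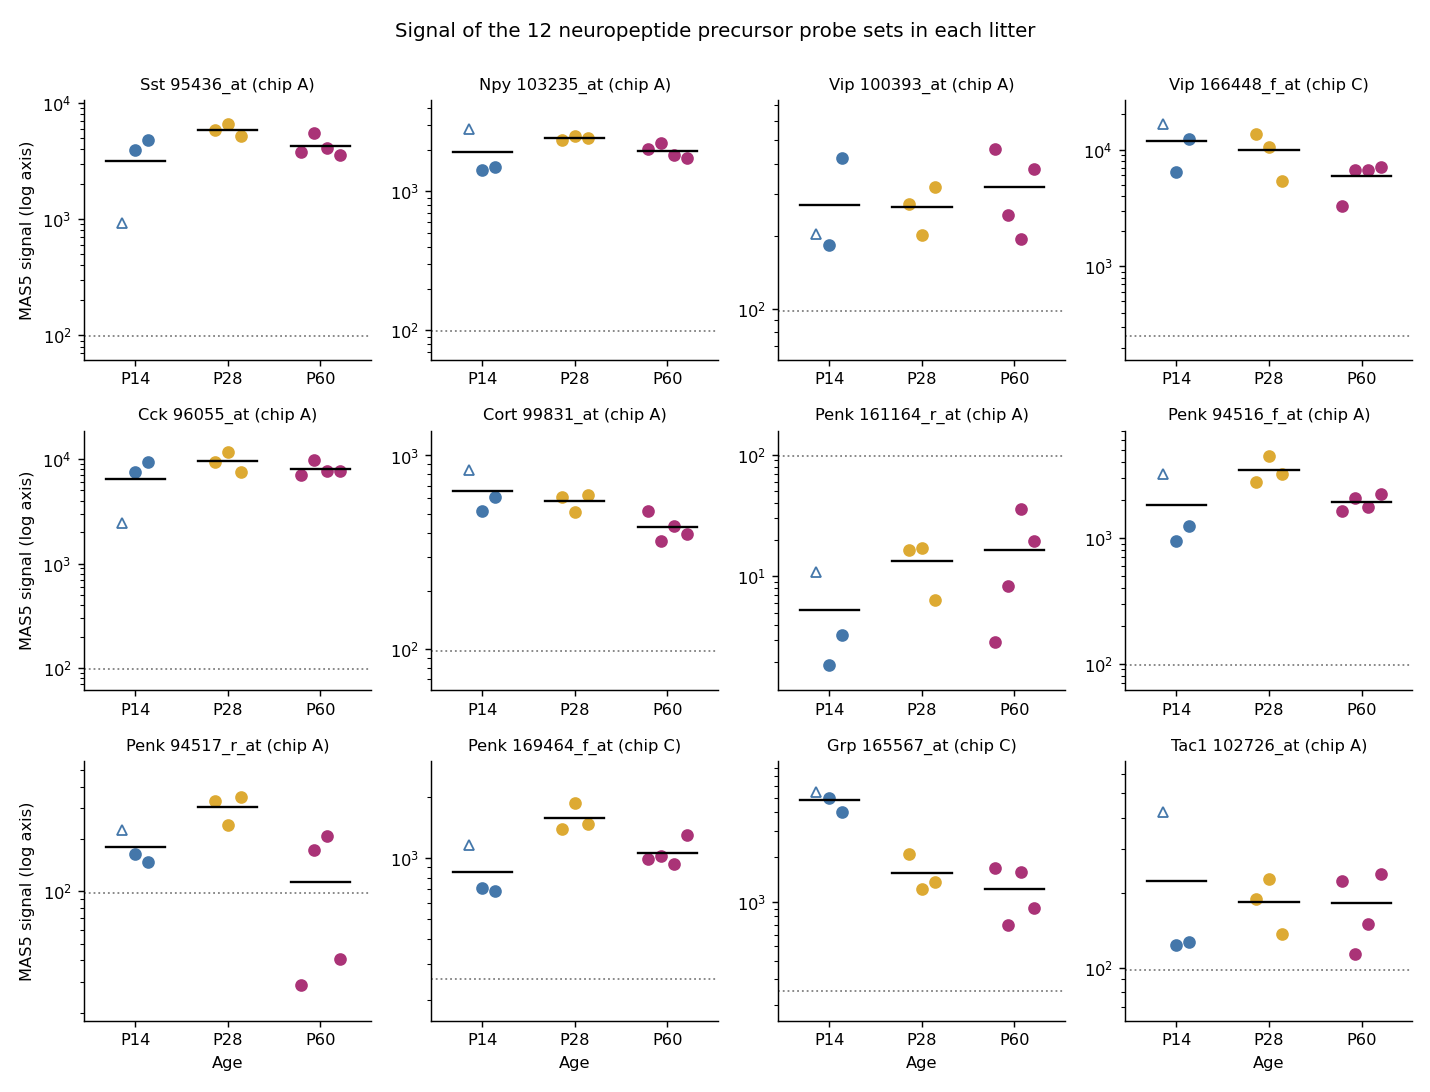
MAS5 signal on a log axis for each of the 12 probe sets, with 1 point per litter at P14, P28 and P60. The open triangle is P14 litter 1, black bars are age means over all litters, and the dotted line is the 95th percentile of the Bacillus controls of that chip. All Grp signals at P14 (4033 to 5533) lie above all later ones, and the 3 P28 litters are the highest age group for Penk 169464_f_at.

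Grp, which encodes the bombesin-like gastrin-releasing peptide, fell with age and was the only precursor whose change passed the test with all 10 litters. Its probe set 165567_at on chip C had signals of 5533, 4996 and 4033 at P14, of 2104, 1212 and 1365 at P28, and of 1685, 698, 1576 and 908 at P60. The P14 litters lay above every later litter, while the P28 and P60 litters overlapped. The mean signal was 4854 ± 760 at P14, 1560 ± 477 at P28 and 1217 ± 488 at P60 (SD, n = 3, 3 and 4).

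On the scale of log2 of the signal plus a constant, P60 was lower than P14 by limma's estimate of -2.03 (SE 0.310, 95% confidence interval -2.70 to -1.36, adjusted p = 0.0178). Across all probe sets 82 of 20724 passed in this comparison (0.396%), 22 higher and 60 lower at P60. P28 minus P14 was -1.64 for Grp (SE 0.331, adjusted p = 0.179), and here 1 of 20724 probe sets passed (0.00483%). P60 minus P28 was -0.40 (SE 0.310, adjusted p = 0.904). No probe set passed in that last comparison (0%). An unadjusted limma p under 0.05 was found for 1125 of the 20724, near the share that this threshold passes by chance. When the 3 ages were tested together, Grp passed with an adjusted p of 0.0485, among 23 probe sets (0.111%), and an exact permutation test of the F statistic over the 4200 ways to deal the litters gave p = 0.00619, unadjusted. The limma call over the 3 ages was fragile. No member passed with a constant of 16, with no constant, with no filter on dim probe sets, with quantile normalization or without the variance trend, nor in 8 of 10 fits made with a single litter omitted.

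The fall of Grp did not rest on P14 litter 1, which differed from the mean over P14 litters 2 and 3 by 0.30 on the log2 scale. Without it, P60 minus P14 was -1.93 (SE 0.348, adjusted p = 0.0200), among 497 probe sets that passed (2.4%). The call was lost without P14 litter 2 (-2.01, adjusted p = 0.0778), where 0 of 20724 probe sets passed (0%). It was also lost without P60 litter 4 (-1.93, adjusted p = 0.0778), where 8 passed (0.0386%). In bulk tissue, fewer cells of a type and less RNA per cell cannot be told apart.

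Several marker sums also differed between these ages. That of 8 meningeal and choroid plexus markers was 5879 to 7330 at P60 and 10224 to 10964 at P14, with all 8 above the Bacillus level on average. It mostly followed Igf2, which had signals of 1745, 2099, 1993 and 1307 at P60, against 5914, 6182 and 6386 at P14, and which fell by 1.79 on the log2 scale (adjusted p = 0.00937), while 3 of the 6 tested markers of this list were positive. The sums of 7 myelin markers (10785 to 15551 at P60, 4476 to 9086 at P14, 6 above the Bacillus level) and of 6 hippocampal markers (1836 to 3519 and 1273 to 1830, 4 above it) were higher at P60 without overlap. Among the myelin genes Mag, a myelin-associated glycoprotein, rose by 1.51 (adjusted p = 0.0461). The hippocampal sums nearly met, at 1836 and 1830. None of the 3 tested hippocampal markers passed, and the brightest, Tdo2, had a value of 0.59 (adjusted p = 0.417). The sum of 10 excitatory neuron markers was 16645 to 22405 at P60 and 21887 to 28282 at P14, with 9 above that level, and that of 6 thalamic markers was 4473 to 7162 and 6957 to 9108, with 4 above it, so both overlapped. The 20 GABAergic interneuron markers summed to 22012 to 24774 at P60 and 19863 to 32820 at P14, with 18 above that level. The part of these cell types in the Grp result was not tested. Among the receptors of this peptide, Grpr and the related Nmbr were too dim to be tested, with mean signals over the ages of 11.1 to 15.6 and 67.2 to 117.

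Penk, the precursor of the enkephalin opioid peptides, was highest at P28 on each of its 3 tested probe sets, but passed the test only when P14 litter 1 was left out. Probe set 94516_f_at had signals of 3231, 942 and 1239 at P14, of 2788, 4423 and 3214 at P28, and of 1621, 2073, 1757 and 2236 at P60. Every P28 litter exceeded every P60 litter, and P14 litter 1 lay within the P28 range while the other P14 litters were below all others. Probe set 169464_f_at on chip C had signals of 1153, 713 and 687 at P14, of 1389, 1870 and 1475 at P28, and of 990, 1025, 929 and 1294 at P60. Here every P28 litter was above all the others. The dimmer 94517_r_at had 227, 163 and 148 at P14, 329, 242 and 350 at P28, and 29, 172, 209 and 41 at P60. Its P60 litters 1 and 4 were under the Bacillus level of 98.4. The suffixes f and r mark probe sets designed under relaxed rules, so a share of these signals can come from other transcripts.

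With all litters, Penk 94516_f_at was 1.11 higher at P28 than at P14 on the log2 scale (SE 0.375, adjusted p = 0.475) and 169464_f_at was 0.88 higher (SE 0.257, adjusted p = 0.397). Without P14 litter 1 the P28 minus P14 value of 94516_f_at was 1.62 (SE 0.223, adjusted p = 0.0228), a rise that passed, among 26 probe sets that did (0.125%). That of 169464_f_at was then 1.11 (SE 0.240, adjusted p = 0.114). P60 minus P28 was -0.83 for 94516_f_at (SE 0.351) and -0.55 for 169464_f_at (SE 0.240), both with an adjusted p of 0.894. The exact permutation test over the 3 ages gave p = 0.1 for 94516_f_at and p = 0.0133 for 169464_f_at with 10 litters, and p = 7.94e-04 and p = 0.00159 with 9, unadjusted. The value of 7.94e-04 is the smallest that the 1260 deals of 9 litters can give.

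Because Penk is abundant in the striatum, 7 striatal neuron markers were summed beside it. Their sum was 4576 to 5737 at P28 and 3739 to 5026 at P14, with the lowest P14 value in litter 1 and 4876 and 5026 in the others, and 6 of the 7 were above the Bacillus level on average. Its members differed in direction. Ppp1r1b, a phosphatase inhibitor of striatal projection neurons, had a P28 minus P14 value of 0.93 (adjusted p = 0.235), while Gpr6, a receptor of striatal neurons, had signals of 124, 22.2 and 136 at P28, all under the Bacillus level of 153, against 357, 588 and 414 at P14. The myelin sum (9853 to 15989 at P28, 4476 to 9086 at P14) and the hippocampal sum (1935 to 2110 and 1273 to 1830) were also higher at P28, without overlap. The part of these cell types in the Penk result was not tested. Tac1, the precursor of substance P and neurokinin A and another striatal gene, had signals of 420, 124 and 127 at P14, of 189, 227 and 136 at P28, and of 224, 114, 150 and 237 at P60. Apart from litter 1, the P14 litters were below all P28 litters, while the P60 litters overlapped both ages. P28 minus P14 for Tac1 was -0.08 with P14 litter 1 and 0.42 without it (adjusted p = 0.984 and 0.795).

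Npy, which encodes neuropeptide Y, a peptide of several interneuron classes, had signals of 2826, 1425 and 1499 at P14, of 2337, 2505 and 2406 at P28, and of 2008, 2229, 1832 and 1742 at P60. Every P28 litter lay above every P60 litter, and P14 held the highest litter, litter 1, and the lowest ones. P28 minus P14 was 0.40 with all litters (SE 0.254, adjusted p = 0.762) and 0.71 without P14 litter 1 (SE 0.160, adjusted p = 0.128). P60 minus P28 was -0.31 (SE 0.238, adjusted p = 0.903). The exact permutation test over the ages gave p = 0.299 with 10 litters and p = 0.00238 with 9, unadjusted.

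Sst, the precursor of somatostatin and the marker of dendrite-targeting interneurons, and Cck, the precursor of cholecystokinin, were both low in P14 litter 1. Sst had signals of 920, 3889 and 4743 at P14, of 5875, 6568 and 5187 at P28, and of 3797, 5510, 4112 and 3529 at P60. Cck had 2444, 7488 and 9317 at P14, 9412, 11633 and 7432 at P28, and 6958, 9697, 7683 and 7600 at P60. All P14 litters were below all P28 litters for Sst, whereas for Cck the ages overlapped with and without P14 litter 1. On the log2 scale, that litter minus the mean over litters 2 and 3 was -2.18 for Sst, with 2.65% of all tested probe sets further down, and -1.76 for Cck, with 4.80% further down.

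P28 minus P14 of Sst was 1.17 with all litters (SE 0.472, adjusted p = 0.585) and 0.44 without P14 litter 1 (SE 0.205, adjusted p = 0.489). P60 minus P14 of Sst was 0.68 with that litter and -0.04 without it, and that of Cck was 0.51 and -0.08. P28 minus P14 of Cck was 0.75 and 0.16 (adjusted p = 0.697 and 0.888). The exact permutation test over the ages gave p = 0.120 and 0.0841 for Sst and p = 0.310 and 0.507 for Cck, with 10 and 9 litters, unadjusted.

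**Figure D2:**
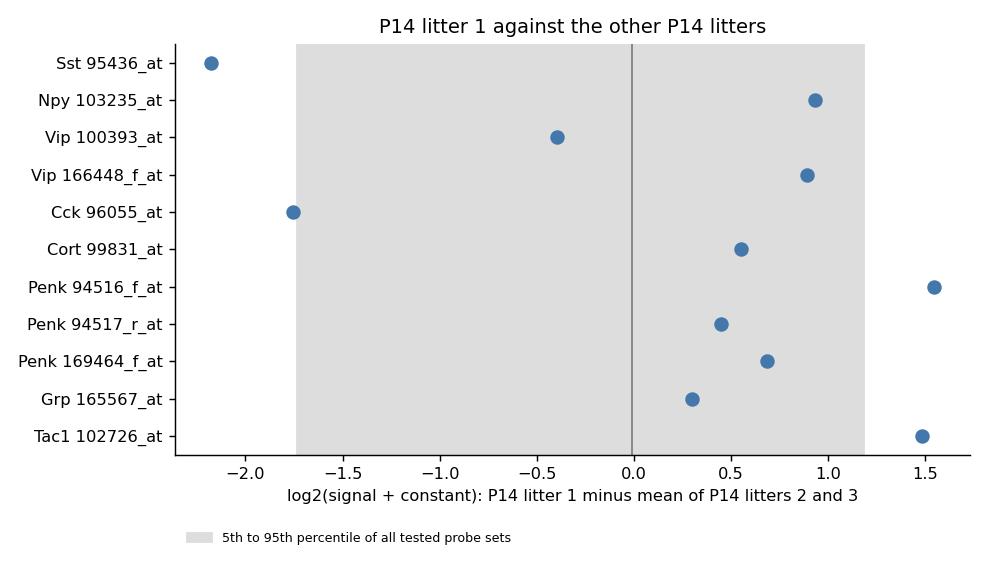
Difference on the log2 scale between P14 litter 1 and the mean of P14 litters 2 and 3 for the 11 tested probe sets, with the 5th to 95th percentile of all 20724 tested probe sets (-1.73 to 1.19) shaded and their median of -0.01 as a line. Sst and Cck lie below the shaded range, and Penk 94516_f_at (1.55) and Tac1 (1.48) above it.

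The deviations of P14 litter 1 went in both directions among the precursors. Penk 94516_f_at was 1.55 higher there than in the other P14 litters, with 1.43% of tested probe sets further up, and Tac1 was 1.48 higher, with 1.85% further up. Npy was 0.93 higher and Vip 166448_f_at 0.89 higher. Over all tested probe sets the 5th percentile of this difference was -1.73, the median -0.01 and the 95th percentile 1.19, so 4 of the 11 member probe sets were outside that range. The part of incomplete RNA in these differences was not tested.

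Vip, the precursor of vasoactive intestinal peptide and the marker of interneurons that inhibit other interneurons, was read by 2 probe sets that disagreed. Probe set 100393_at had signals of 204, 183 and 421 at P14, of 271, 203 and 320 at P28, and of 458, 245, 194 and 381 at P60, with all ages overlapping. Probe set 166448_f_at on chip C had 16540, 6440 and 12299 at P14, 13629, 10492 and 5401 at P28, and 3311, 6687, 6626 and 7036 at P60. P60 minus P14 was 0.23 for 100393_at (SE 0.335, adjusted p = 0.761) and -0.94 for 166448_f_at (SE 0.386, adjusted p = 0.265). Without P14 litter 1 these values were 0.10 (adjusted p = 0.907) and -0.65 (adjusted p = 0.403). The second probe set carries the suffix f, and its lower P60 values fell short of the test.

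Cort encodes cortistatin, a relative of somatostatin that binds the same receptors. Its signals were 838, 516 and 610 at P14, 608, 513 and 628 at P28, and 520, 363, 434 and 396 at P60. All but 1 of the P60 litters were below all earlier ones. P60 minus P14 was -0.56 with all litters (SE 0.211, adjusted p = 0.237) and -0.37 without P14 litter 1 (SE 0.198, adjusted p = 0.329). P60 minus P28 was -0.42 (SE 0.211, adjusted p = 0.894). The exact permutation test over the ages gave p = 0.0395 with 10 litters and p = 0.0611 with 9, unadjusted, for 12 member probe sets looked at in this way.

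**Figure D3:**
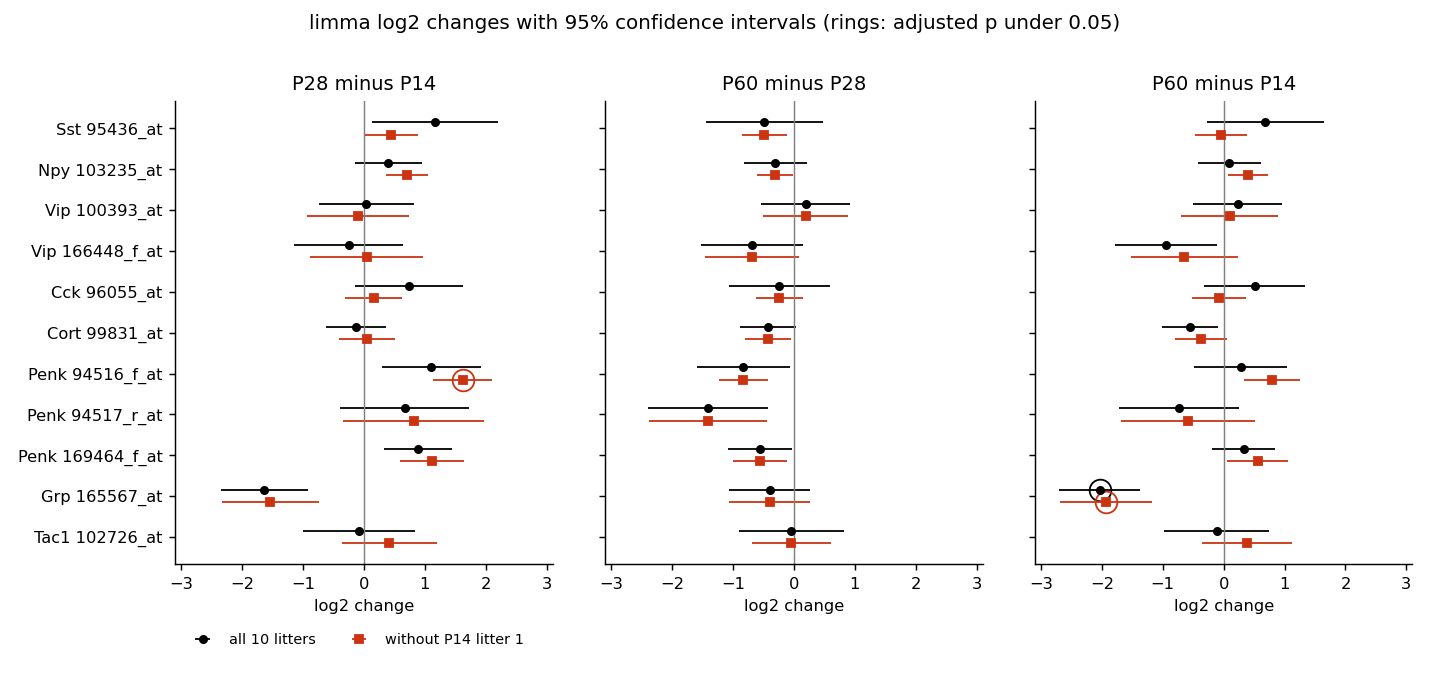
limma log2 changes with 95% confidence intervals for the 11 tested probe sets in the 3 age comparisons, with all 10 litters (black circles) and without P14 litter 1 (red squares). Rings mark an adjusted p under 0.05, which Grp has for P60 minus P14 in both fits and Penk 94516_f_at has for P28 minus P14 without P14 litter 1.

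Seen as a list, 7 of the 11 probe sets had a positive P28 minus P14 value, with a median of 0.40, beside 52.9% positive and a median of 0.03 over all tested probe sets. For P60 minus P28, 1 of 11 was positive, with a median of -0.42, beside 49.0% and -0.01, and the exception was Vip 100393_at. For P60 minus P14, 6 of 11 were positive, with a median of 0.09, beside 54.8% and 0.06. Leaving out P14 litter 1, 9 of 11 were positive for P28 minus P14 with a median of 0.42, beside 50.6% and 0.01, and 5 of 11 for P60 minus P14 with a median of -0.04, beside 51.9% and 0.02. These comparisons share litters, and the probe sets of Penk and of Vip each read 1 gene, so the 11 values are not independent.

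A restricted set of arrays, known from earlier results of these data, left out P14 litter 1 on all chips, P60 litters 1 and 4 on chips A and B, and P60 litter 2 on chip C. No label marks these arrays as poor, so the calls given here depend on that choice. With the restricted arrays, 208 of 20724 probe sets passed for P28 minus P14 (1%), and 3 of them were members. These were Penk 94516_f_at at 1.62 (adjusted p = 0.0146), Penk 169464_f_at at 1.11 (adjusted p = 0.0482) and Grp at -1.54 (adjusted p = 0.0436). For P60 minus P14, 441 probe sets passed (2.13%), with Grp at -1.71 (adjusted p = 0.0217) the only member. Npy had a P28 minus P14 value of 0.71 with an adjusted p of 0.0539.

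The likeness of the precursors to each other was described by Pearson's r of log2 values over the litters, on the brightest tested probe set of each gene. Sst and Cck had r = 0.98 over 10 litters and 0.84 over the 9 without P14 litter 1. Npy and Penk had 0.89 and 0.90, so that this likeness was present with and without the litter. Sst and Npy had -0.24 and 0.72, and Sst and Tac1 had -0.72 and -0.09, so their values turned on P14 litter 1. Grp had -0.37 and -0.66 with Penk and 0.74 and 0.62 with Cort. All genes of a chip share its arrays, and age differences enter every one of these values, which are descriptions with no test.

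**Figure D4:**
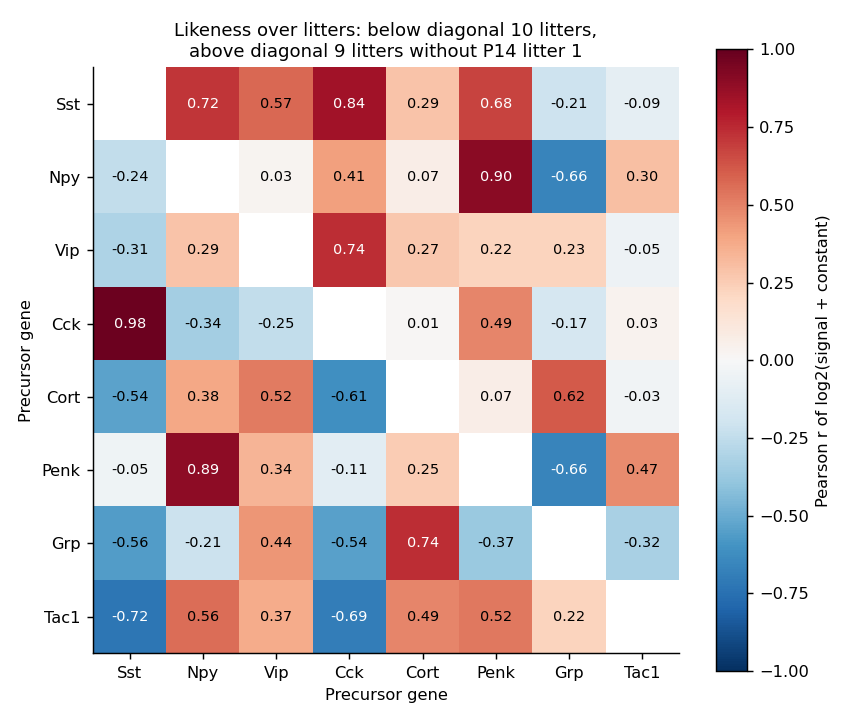
Pearson's r of log2(signal + constant) for each pair of the 8 precursors, over 10 litters below the diagonal and over 9 litters without P14 litter 1 above it. The pair of Npy and Penk has 0.89 and 0.90, while Sst and Npy have -0.24 and 0.72.

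Among all other tested genes, those most like Grp over the 10 litters were Soga3 (r = 0.970), Uchl3, a ubiquitin hydrolase (0.967), and Enpp5 (0.965), all on the same chip C arrays. Without P14 litter 1 these values were 0.970, 0.956 and 0.951. Uchl3 had signals of 5006, 4043 and 2809 at P14, of 2402, 1497 and 1883 at P28, and of 1500, 819, 1510 and 960 at P60, with the P14 litters above the rest, as for Grp. The genes most like Penk were Hddc3 (0.907), Deptor, an inhibitor of the mTOR kinase (0.897), and Npy (0.894), and most like Npy were Rbp4, a retinol carrier (0.942), Umad1 (0.926) and Tspyl2 (0.907).

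For Sst the closest genes were AI413582 (0.992), 1110008P14Rik (0.989) and Anapc7 (0.987), and for Cck they were Sst (0.977), Anapc7 (0.972) and Plod3 (0.971). Each of these genes was lowest in P14 litter 1, and without it the values were between 0.915 and 0.954 for Sst and between 0.778 and 0.841 for Cck. For Vip 166448_f_at they were Rnf34 (0.913), Rac1 (0.902) and Dipk2a (0.896), for Cort Psen2, a presenilin (0.947), Cep20 (0.945) and Selenos (0.940), and for Tac1 Polr2c (0.945), Klhl12 (0.937) and Tspyl5 (0.932).

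No receptor of the 8 peptides passed in any of the 3 age comparisons with all litters. Of 21 receptor genes 20 had a probe set used here and 9 were bright enough to be tested, and for P60 minus P14 7 of the 9 were positive with a median of 0.39, beside 54.5% positive and a median of 0.05 over all tested genes. With P14 litter 1 left out, 6 were positive with a median of 0.33. Cckbr, the main brain receptor of cholecystokinin, had mean signals of 902, 1323 and 1322 at P14, P28 and P60, with a P60 minus P14 value of 0.53 (adjusted p = 0.198). The somatostatin receptors Sstr4, Sstr5 and Sstr2 had values of 0.44, 0.39 and 0.16. The neuropeptide Y receptors Npy2r and Npy1r had 0.07 and -0.23, and Vipr2, a receptor of vasoactive intestinal peptide, had 0.55. Mean signals of Npy1r were 234, 154 and 195 at P14, P28 and P60, under the chip C Bacillus level of 252. The 2 furthest from 0 were Tacr2, a tachykinin receptor, at 1.16 (adjusted p = 0.284) and Adcyap1r1, a receptor of the same family as Vipr2, at -0.71 (adjusted p = 0.529). Both rest on signals near background. Tacr2 had 2 of its 3 P14 litters under the Bacillus level of 98.4 and was tested through its brighter later litters. Adcyap1r1 had P60 signals of 275, 49.4, 43.8 and 259, and it passed in the restricted set of arrays (adjusted p = 0.0125), where the 2 P60 litters left are those under the Bacillus level. The opioid receptors Oprm1, Oprd1 and Oprk1 were too dim to be tested.

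The machinery that makes and stores peptides was tested for 13 of 15 genes, with none passing and a P60 minus P14 median of -0.02, which was 0.14 without P14 litter 1 and 0.13 with the restricted arrays. Pcsk1n, an inhibitor of a prohormone convertase, was 1.34 (adjusted p = 0.352), with P14 litter 1 at 390 and the other P14 litters at 5025 and 5274. Cadps2, which primes dense-core vesicles, was -0.80 (adjusted p = 0.324), with P14 litter 1 at 16737 and the others at 5558 and 5820. In both genes P14 litter 1 was the litter furthest from all others. Of 10 peptidases that break down neuropeptides 7 were tested, with none passing and a median of 0.07, which was 0.22 without P14 litter 1 and -0.24 with the restricted arrays. Nln, or neurolysin, was -0.43 (adjusted p = 0.551) and Ece1, an endothelin-converting enzyme, was 0.35 (adjusted p = 0.404).

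Of 18 further neuropeptide precursors 10 were tested, none passed, and the P60 minus P14 median was -0.14, with 4 positive. It was 0.05 without P14 litter 1 and with the restricted arrays 0.09, each with 6 positive. Pomc, the precursor of melanocortins and beta-endorphin, had signals of 126, 78.6, 69.3 and 110 at P60, against 260, 310 and 240 at P14, with no overlap but a value of -1.21 that did not pass (adjusted p = 0.147). Its P60 litters 2 and 3 were under the Bacillus level of 98.4, and it was tested only through its 3 P14 litters, so the size of this value is limited by background. Trh, the precursor of thyrotropin-releasing hormone, was -0.89 (adjusted p = 0.502), with P60 litters 1 and 4 at 25.3 and 17.9 and the other P60 litters at 298 and 319. These are the litters in which Penk 94517_r_at was also under the Bacillus level.

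**Figure D5:**
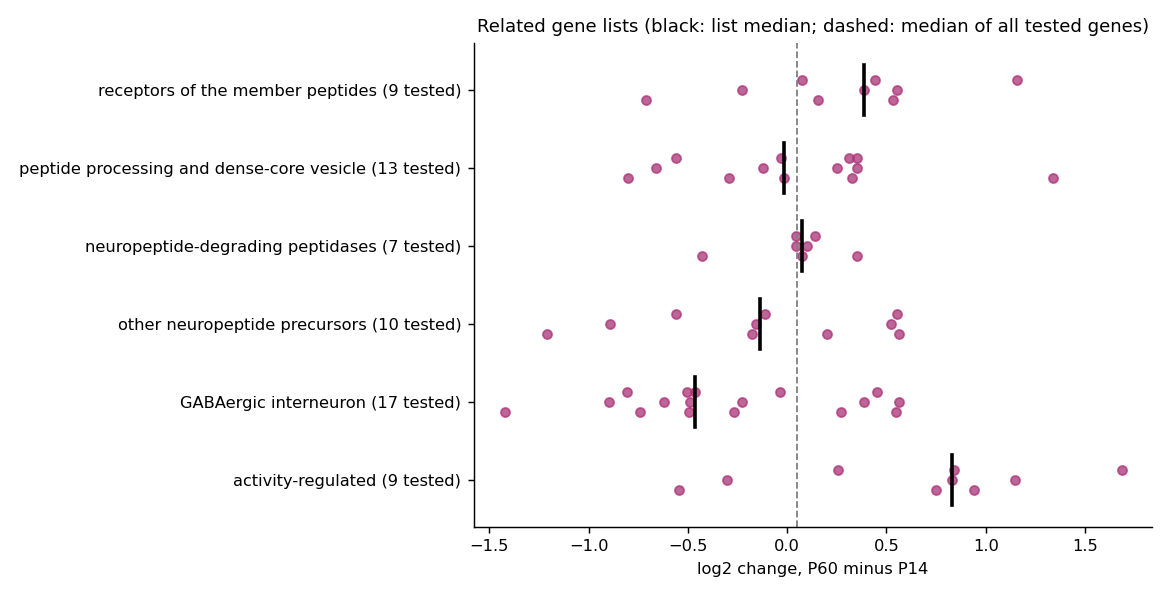
P60 minus P14 log2 changes of the tested genes of 6 related lists, with 1 point per gene, a black bar at each list's median and a dashed line at the median of all 11240 tested genes (0.05). The activity-regulated list has the highest median (0.83) and the GABAergic interneuron list the lowest (-0.46), with none of these genes past the test.

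The genes of GABAergic interneurons, the cells that make most of these peptides, were tested for 17 of 22 members, of which 5 were positive for P60 minus P14, with a median of -0.46. This median was -0.22 without P14 litter 1 and -0.06 with the restricted arrays. None passed with all litters. Gad2, a GABA-synthesising enzyme, was -1.42 (adjusted p = 0.217) and Maf, a transcription factor of interneurons from the medial ganglionic eminence, was -0.90 (adjusted p = 0.124). Without P14 litter 1, Gad2 fell with a value of -2.07 (adjusted p = 0.0321) while Gad1, the second synthesising enzyme, rose with 1.08 (adjusted p = 0.0187). With all litters Gad1 was 0.45 (adjusted p = 0.594). The omitted litter had its highest signal, 9459, against 2167 and 2939 in the other P14 litters. Gad2 signals were 87.2, 97.9, 290 and 55.2 at P60, against 130, 646 and 691 at P14, and all but litter 3 at P60 were under the chip B Bacillus level of 153, so the size of its fall is not well measured. With the restricted arrays Calb2, or calretinin, also fell, with -0.92 (adjusted p = 0.0334).

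Of the activity-regulated genes, whose transcription follows neuronal firing, 9 of 10 were tested, with 7 positive for P60 minus P14 and a median of 0.83, which was 1.05 without P14 litter 1. Junb had signals of 1941, 3058, 1731 and 2633 at P60, against 686, 740 and 628 at P14, without overlap, and a value of 1.68 (adjusted p = 0.0554). Nr4a1 had a value of 1.15 (adjusted p = 0.186). Without P14 litter 1, Junb rose by 1.69 (adjusted p = 0.0322) and Bdnf, a neurotrophin, by 1.43 (adjusted p = 0.0187). With all litters Bdnf was 0.84 (adjusted p = 0.333). Its P14 signals were 2900 in litter 1 and 779 and 862 in the others.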

How the data were processed

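Deposited signal intensities on a linear scale came from 30 Affymetrix arrays, 3 chip types for each of 10 litters, and per the submitters' processing notes MAS5 produced them (version not given in the sources used here). Per the labels' protocols, total RNA of dissected V1 was isolated with Trizol and 6 µg of it went into biotinylated cRNA. Each title names a litter 1, an age and then another litter number, and that last number was taken as the litter. Arrays were already scaled, and no further scaling was done.

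The analysis used log2 of each signal after adding the 20th percentile of its chip type (38.6, 57.8 and 44.0 for chips A, B and C), which understates the change of dim probe sets. A probe set was tested if it exceeded the chip median (207, 252 and 183) on at least 3 arrays, which left 20724. The number of arrays limits the precision. Each chip type was fitted with limma 3.58.1 in R 4.3.3 (lmFit, eBayes with a variance trend), with age as the only term. Every adjusted p is limma's, two-sided, by Benjamini-Hochberg across all 3 chip types jointly, and was called under 0.05. The scripts were tested on simulated data. Symbols came from the array annotation, updated by gene ID. Lists used 1 probe set per gene, from chip A, then B, then C.

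The text names every member probe set, the 2 genes of each list with the widest P60 minus P14 difference and the 3 genes most like each member. No gene of the 6 related lists passed with all litters. Other list and marker genes are named as examples chosen after their values were seen. The members and lists were chosen with earlier results of these data known. Alternatives were another constant or none, no filter, quantile normalization, no variance trend, the litter number as a block, the restricted arrays and each litter left out.

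The deviations of same-numbered litters of different ages were at most weakly correlated, which cannot show whether these litters are related. Of 27 correlations 4 were over 0.1, with a range of -0.0760 to 0.158.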

Additional observations from a re-analysis of the deposited data

Results flagged for a closer look

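1 of 12 groups of 4 litters that were looked at held a litter far from the others, where chance gives about 1 in 20 groups. For Vip 166448_f_at at P60, litter 1 had a signal of 3311, against 6626, 6687 and 7036 in litters 3, 2 and 4. Its gap to the nearest litter was 0.920 of the whole range on the log2 scale. Without P60 litter 1, P60 minus P14 of this probe set was -0.69, against -0.94 with all litters (adjusted p = 0.500 and 0.265).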

How the results depend on the processing

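The P60 minus P14 fall of Grp kept its direction under 17 alternatives, from -2.22 to -1.71, and passed under 14. It was lost with the litter number as a replicate block (-1.93, adjusted p = 0.108), and without P14 replicate 2 or P60 replicate 4, as given above. Its call over the 3 ages was less stable. The number of member probe sets called there was 1, and was 0 with a constant of 16, with no constant, with no filter, with quantile normalization, without the variance trend and with the block, and 2 with the restricted arrays. Over all probe sets the count for the 3 ages was 15 with quantile normalization, 6 without the trend, 0 with the block and 221 with the restricted arrays, against 23. For P60 minus P14 it was 51, 0 and 441 without the trend, with the block and with the restricted arrays, against 82, and the member count with the block was 0. For P28 minus P14 it was 0 with the block and 208 with the restricted arrays, against 1, and the member count with the restricted arrays was 3. With those arrays 1 receptor, 3 GABAergic interneuron genes and 1 activity-regulated gene passed for P60 minus P14, against 0 in each list. The labels do not say whether litters with the same number at different ages are related.

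With 1 litter left out, the count over all probe sets was 0 to 26 for P28 minus P14, 0 to 1 for P60 minus P28, 0 to 497 for P60 minus P14 and 0 to 130 for the 3 ages, and for members it was 0 to 1 for P28 minus P14, P60 minus P14 and the 3 ages. The highest counts, including 1 for P60 minus P28, came without P14 litter 1, and the second highest for P60 minus P14, 260, without P60 litter 3. For members over the 3 ages it was 0 in 8 of the 10 fits. For the GABAergic interneuron list and the activity-regulated list it was 0 to 2. Several log2 values that did not pass changed sign. For P28 minus P14 the leave-one-out range was -0.16 to 0.37 for Vip 100393_at, -0.63 to 0.13 for Vip 166448_f_at, -0.28 to 0.047 for Cort and -0.33 to 0.42 for Tac1. For P60 minus P14 it was -0.041 to 1.12 for Sst, -0.082 to 0.40 for Npy, -0.076 to 0.88 for Cck, -0.072 to 0.80 for Penk 94516_f_at and -0.37 to 0.38 for Tac1. For P60 minus P28 of Tac1 it was -0.20 to 0.12. With the restricted arrays the sign turned for Vip 100393_at in all comparisons (-0.093 for P28 minus P14, -0.22 for P60 minus P28 and -0.32 for P60 minus P14), for Vip 166448_f_at (0.044), Cort (0.047) and Tac1 (0.42) for P28 minus P14, and for Penk 94517_r_at (0.23) and Tac1 (0.048) for P60 minus P14. The cause of these changes was not tested. Probe sets near the Bacillus level, such as Tac1 and Penk 94517_r_at, are limited by their signal over background.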
